A study of Rattus norvegicus with 20 samples.

Results

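The potassium channel genes were taken as every gene whose current rat symbol begins with Kcn, read from probe sets annotated to a single gene. They numbered 54 genes on 82 probe sets, out of 4736 genes with 1 symbol on the array, and the brightest probe set over all arrays stood for each gene. Updating the symbols changed no Kcn name.

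The samples were total RNA of dorsal root ganglia, the clusters of sensory nerve cell bodies beside the spinal cord, taken from the operated side of rats and read on 20 Affymetrix rat genome arrays. Ganglia came from rats with chronic constriction injury (CCI) of the sciatic nerve with 3 samples each at 14 and 21 days, and from rats of the Seltzer model with 2 samples at 14 days, 3 at 21 days and 2 at 50 days. Sham-operated rats gave 2 samples at 14 days, 3 at 21 days and 2 at 50 days. The Seltzer model is usually a partial ligation of the nerve, while the labels describe these samples as transected. Strain, sex and age are not given in the labels, and no label ties samples of a group to different animals. The spread behind every p-value may for that reason be technical.

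Potassium channels let potassium leave the cell and thereby hold the resting potential, end the action potential and limit repetitive firing. Voltage-gated (Kv) channels assemble from pore subunits such as Kv1 and Kv4, with accessory beta subunits and with electrically silent subunits that form no channel alone but change the behaviour of Kv2. The KCNQ group, which carries the M current, and the EAG and ERG family are voltage-gated too. Further classes are the inward rectifiers, the 2-pore leak channels, the calcium-activated BK and SK channels and the sodium-activated Kcnt channels. In sensory neurons, loss of potassium current is known for raising excitability after nerve damage.

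Values are intensities as deposited by the authors, and each array's own negative values set its background, as the 95th percentile of their size, and a brighter probe set counted as above it. Changes are differences of log2(intensity + 16) between groups, after values below 0 were set to 0, each with its standard error (SE). Their p-values come from limma, adjusted by Benjamini-Hochberg over all 8740 probe sets tested, and "rose" or "fell" is used where the adjusted p was under 0.05. Folds not given as a minimum are ratios of geometric means, so they can differ slightly from the ratio of the printed means. The background was 169 to 326 for 17 arrays. It was higher for replicate 1 of CCI at 21 days (499) and for both Seltzer arrays of day 50 (766 and 599). Markers of sensory neurons were present, with 12 of the 13 measured (such as the neurofilament gene Nefl) above background on at least 10 arrays. The exception in that list was Th, the tyrosine hydroxylase gene, below background on every array. Signals of different probe sets are not compared with each other as amounts of mRNA, and with bulk tissue fewer cells of a type and less RNA per cell cannot be told apart.

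Most potassium channel genes were not read above background in these ganglia. Of the 54 genes, 40 (74.1%) were never above background on any array, against 62.3% of all 4736 genes. On at least 10 of the 20 arrays 5 were above it (9.26%, against 23.6% of all genes), namely Kcnab2, Kcnh3, Kcna1, Kcnmb1 and Kcnj1. A further 9 were above background on 1 to 9 arrays. These were Kcnd3 (9 arrays), Kcnh8 (7), Kcnh2, Kcnk1 and Kcns3 (5 each), Kcns1 and Kcnh4 (2 each), and Kcna4 and Kcnq3 (1 each).

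**Figure D1:**
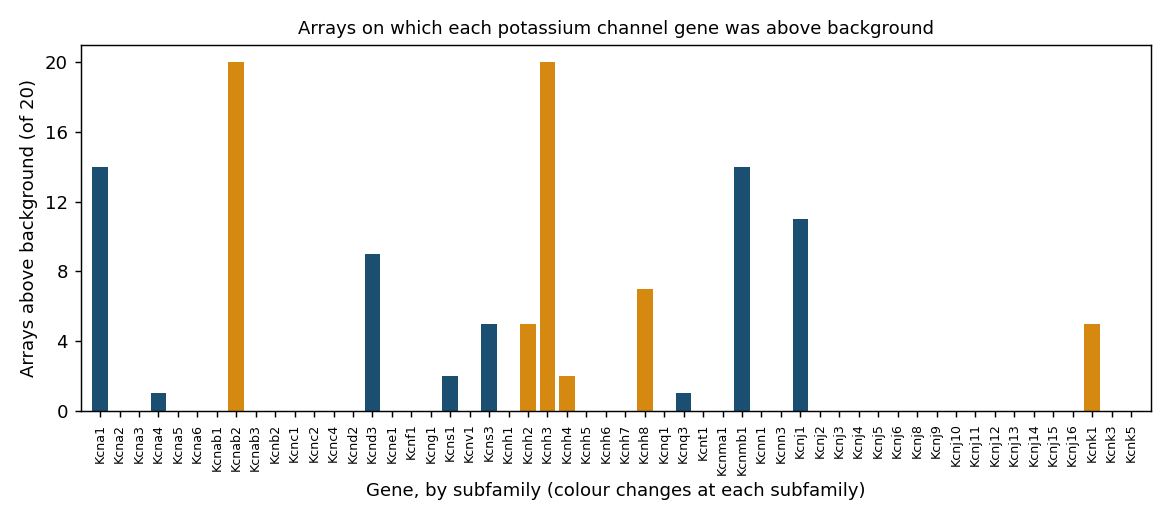
Bars give, for each of the 54 genes on the horizontal axis, the number of arrays of 20 (vertical axis) on which its brightest probe set was above background, with genes ordered by subfamily and the bar colour changing from one subfamily to the next. Kcnab2 and Kcnh3 reach 20 arrays, and 40 genes have no bar.

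By subfamily, the genes above background on at least 1 array were 2 of the 6 Kv1 genes, 1 of the 3 Kv beta genes, 1 of the 2 Kv4 genes and 2 of the 5 silent subunits. The EAG and ERG family, Kcnh, had 4 of 8, and the KCNQ group 1 of 2. Among the inward rectifiers, Kcnj, only Kcnj1 of 15 was read, and 1 of the 3 2-pore genes and 1 of the 2 BK genes were. The Kv3 genes (Kcnc, 3), the SK genes (Kcnn, 2), Kcnb2, Kcne1 and Kcnt1 were never above background. The genes with the highest mean in their subfamily were Kcnc1, the Kv3.1 subunit of fast-firing neurons, which reached at most 219 on any array, Kcnn1, the SK1 channel, with at most 295, and Kcne1, a KCNQ accessory subunit, with at most 317. Kcnq3, a subunit of the M current, read 66.4 to 238. The probe sets of Kcnj6, Kcnq1 and Kcnt1 were at or below 0 on all 20 arrays, so they show neither presence nor change.

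After CCI, 2 potassium channel subunits fell in the mean over 14 and 21 days, and none rose. Kcnab2 encodes Kv beta 2, the cytoplasmic partner of Kv1 channels, and Kcns1 encodes Kv9.1, a silent subunit that modulates Kv2. These 2 are 3.7% of the 54 genes, beside 2.29% of all probe sets called in this comparison (1.1% lower and 1.19% higher). Unadjusted p-values under 0.05 were reached by 6 members, all lower, which is 11.1% beside 10.7% of all probe sets. The median change of the members was 0.00, as over all probe sets. Of the members 23 were higher, 25 lower and 6 exactly 0, which setting negative values to 0 can produce, so the equal medians say little.

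Kcnab2 read 1155 and 1089 on the sham arrays at 14 days and 847, 811 and 683 on the CCI arrays. At 21 days it read 1155, 1164 and 1148 in sham and 545, 831 and 801 in CCI. Every CCI array lay below every sham array of its day, and every reading was above background. The mean was 780.3 ± 86.1 (SD, n = 3) in CCI against 1122 ± 46.3 (SD, n = 2) in sham at 14 days, 1.44-fold lower, and 726 ± 157 (SD, n = 3) against 1155 ± 7.86 (SD, n = 3) at 21 days, 1.62-fold lower. Over both days Kcnab2 fell by 0.60 (SE 0.10, limma adjusted p = 0.00474). The 21-day fall was 0.68 (SE 0.13, limma adjusted p = 0.0283) and the 14-day difference, -0.52 (SE 0.15, limma adjusted p = 0.101), did not pass. Another probe set of Kcnab2 was never above background and differed by -0.18 (SE 0.31, limma adjusted p = 0.952).

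Kcns1 was above background on only 2 of the 20 arrays and below it on the others, so its fall is a matter of readings and not of a fold. The sham arrays gave 109.6 and 115 at 14 days and 199, 223 and 216 at 21 days, of which only replicates 2 and 3 at 21 days were above background. The CCI arrays gave 21.3, 49.2 and 47.1 at 14 days and -20.2, 92.0 and 20.6 at 21 days. All 6 CCI readings lay below all sham readings of the same day. Kcns1 fell by 1.89 (SE 0.38, limma adjusted p = 0.0176) over both days and by 2.52 (SE 0.51, limma adjusted p = 0.0348) at 21 days, while at 14 days it differed by -1.26 (SE 0.57, limma adjusted p = 0.445). The sham reading itself was lower at 14 days (112 ± 3.88, SD, n = 2) than at 21 days (213 ± 12.2, SD, n = 3).

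Settings and single arrays could end these calls. With only the compared groups in the fit, neither passed (limma adjusted p = 0.0507 for Kcnab2 and 0.12 for Kcns1), and the Kcnab2 call was lost with arrays centred on their median (-0.62, limma adjusted p = 0.186). The Kcnab2 change was -0.60 with only the compared groups, as in the fit of all groups. The Kcns1 call was lost without CCI 14-day replicate 1, Sham 14-day replicate 1 or Sham 14-day replicate 2, leaving Kcnab2 as the 1 member called, and with values below 200 set to 200 the Kcns1 change was -0.04. Without CCI 21-day replicate 1, the CCI array with the highest background, 5 members fell: Kcna1, Kcnab2, Kcnd3, Kcns1 and Kcns3. The share of all probe sets called in that fit is not given here, so this count has no background beside it.

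**Figure D2:**
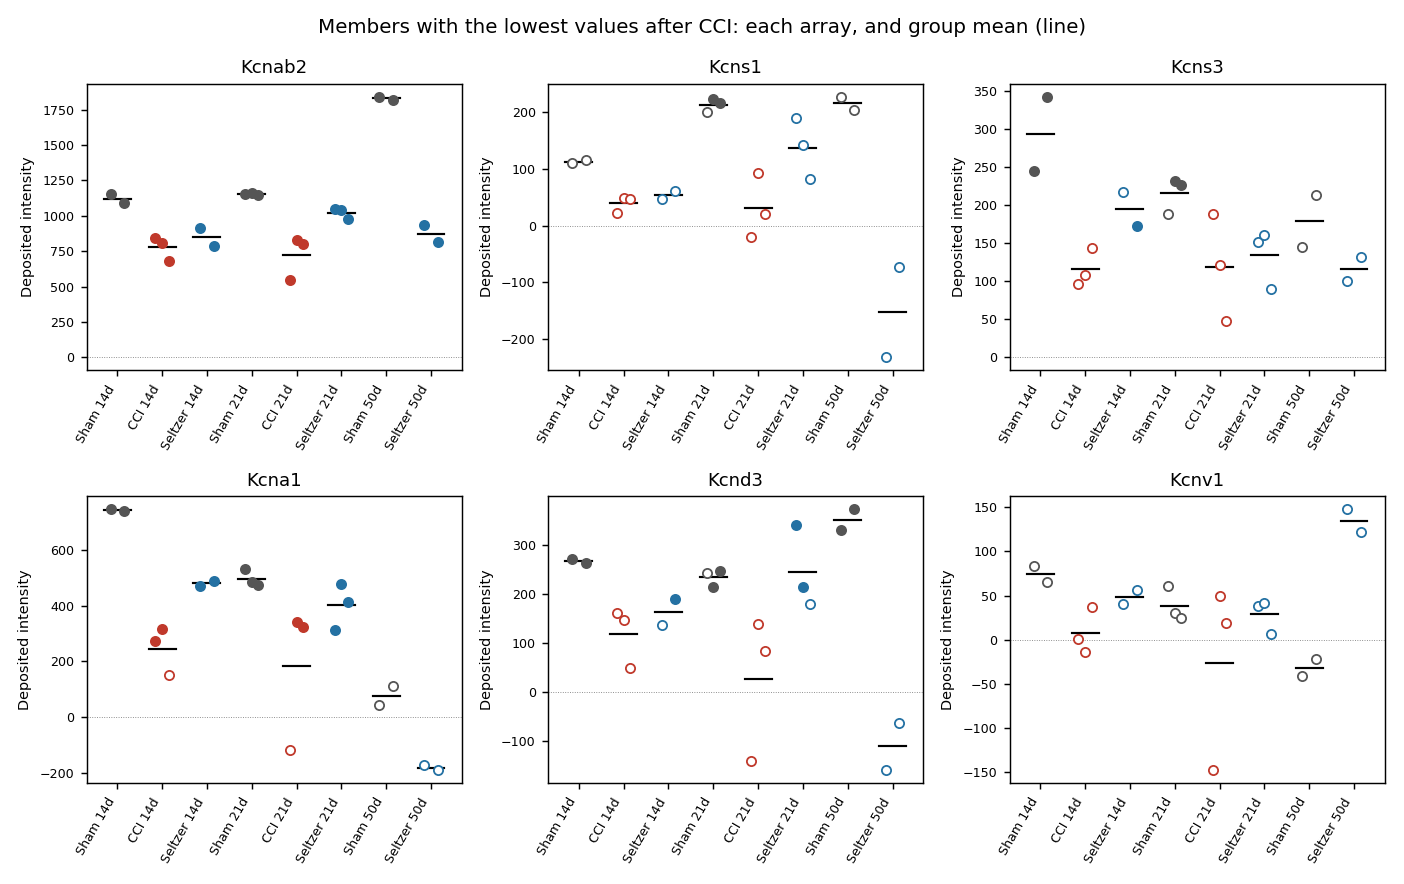
Each panel plots the deposited intensity (vertical axis, linear scale) of 1 gene on all 20 arrays, in the 8 groups along the horizontal axis, with sham in grey, CCI in red and Seltzer in blue. Filled points are above the background of their array, open points are not, and black lines are group means. The Kcnab2 readings of CCI, at 545 to 847, lie below all sham readings, while Kcnv1 has open points only.

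Kcna1, Kcnd3 and Kcns3 also read lower on average after CCI without passing the test. Kcna1, the Kv1.1 pore subunit that restrains repetitive firing, read 744 and 737 in sham and 272, 315 and 151 in CCI at 14 days. At 21 days it read 531, 483 and 474 in sham and -118, 341 and 325 in CCI. No CCI array overlapped sham on either day, and the lowest reading came from CCI 21-day replicate 1. The 14-day means differed 3.16-fold, with CCI 14-day replicate 3 (151) below its background of 232. The change over both days was -1.81 (SE 0.66, limma adjusted p = 0.271).

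A second Kcna1 probe set, singled out after its values were seen, was also lower on every CCI array than in sham of the same day. It read 457 and 429 in sham against 165, 166 and 122 in CCI at 14 days, and 347, 248 and 267 against 125, 221 and 220.3 at 21 days. Every one of these sham readings was above background and no CCI reading was, so the size of its change is uncertain. Its fall passed the test over both days (-1.03, SE 0.24, limma adjusted p = 0.0405) and at 14 days (-1.47, SE 0.36, limma adjusted p = 0.0462). Both probe sets were lower after CCI, and whether Kcna1 passes the test rests in part on which of them represents it. The representative one passed in 2 of 21 alternative settings, without CCI 21-day replicate 1 and with values below 200 set to 200.

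Kcnd3 encodes Kv4.3, a pore subunit of the rapidly inactivating A-type current. At 14 days it read 271 and 262 in sham, against 161, 147 and 49.4 in CCI. At 21 days the readings were 243, 214 and 246 in sham and -139, 138 and 83.5 in CCI, again with no overlap. No CCI array was above background, so the 14-day difference was at least 1.32-fold, and the change over both days was -1.60 (SE 0.48, limma adjusted p = 0.146). Its other probe sets were never above background and differed by 0.13 (SE 0.33, limma adjusted p = 1) and 0.00.

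To show the regions from which the called genes are transcribed, the 300 bases around the annotated start (250 before, 50 after) are given for the 3 members called in more than 1 comparison, from RefSeq on GRCr8, 5′ to 3′ on the gene's strand. For Kcnd3 the comparisons were Seltzer at 50 days and the mean of the 3 Seltzer days, which includes day 50. The capitals mark GGGCGG, the core of the GC box, or its reverse complement. The windows lie at chr3:173262297-173262596 (minus strand) for Kcns1, chr5:168270711-168271010 (minus strand) for Kcnab2 and chr2:195626066-195626365 (plus strand) for Kcnd3.
Kcns1: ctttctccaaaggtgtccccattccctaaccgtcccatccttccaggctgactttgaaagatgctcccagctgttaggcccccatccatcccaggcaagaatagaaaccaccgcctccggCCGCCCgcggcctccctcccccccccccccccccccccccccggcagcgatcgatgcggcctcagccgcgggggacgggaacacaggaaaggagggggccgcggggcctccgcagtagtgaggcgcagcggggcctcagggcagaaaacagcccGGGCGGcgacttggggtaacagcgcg
Kcnab2: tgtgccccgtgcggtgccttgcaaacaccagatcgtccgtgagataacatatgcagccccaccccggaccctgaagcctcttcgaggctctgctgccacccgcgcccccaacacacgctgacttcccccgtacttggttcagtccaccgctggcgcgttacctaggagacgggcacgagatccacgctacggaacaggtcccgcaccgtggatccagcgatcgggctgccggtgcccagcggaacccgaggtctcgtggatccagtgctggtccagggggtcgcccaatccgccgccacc
Kcnd3: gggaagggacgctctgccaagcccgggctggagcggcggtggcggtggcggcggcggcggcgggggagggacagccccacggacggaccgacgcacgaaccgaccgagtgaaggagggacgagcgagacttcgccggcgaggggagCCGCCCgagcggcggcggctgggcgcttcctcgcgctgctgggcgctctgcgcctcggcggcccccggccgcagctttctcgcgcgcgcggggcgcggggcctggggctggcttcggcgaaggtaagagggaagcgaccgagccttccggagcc
These windows were rich in G and C, at 69% for Kcns1, 66% for Kcnab2 and 77.7% for Kcnd3, against a median of 51.7% over 33469 promoters of this length and 62% over those of 40 member genes. GGGCGG was found on either strand in 22 of the 44 windows of these 40 genes (50%), against 33.1% of all promoters, with 2 copies in Kcns1, 1 in Kcnd3 and none in Kcnab2. The AP-1 motif TGANTCA, the E-box CACGTG, the TATA motif TATAAA and the CRE core TGACG were in 6.82%, 4.55%, 4.55% and 20.5% of the member windows. Over all promoters they were in 7.33%, 6.42%, 14.2% and 21.2%. A match of these letters is a description of the sequence.

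Among the silent subunits, Kcns3 (Kv9.3, which like Kcns1 acts on Kv2) missed the threshold narrowly. It read 245 and 342 in sham and 96.8, 108 and 144 in CCI at 14 days, a difference of at least 1.44-fold. At 21 days sham gave 188, 231 and 227 and CCI gave 188, 121 and 48.2, and the groups overlapped at the CCI replicate 1 reading. The change was -1.07 (SE 0.26, limma adjusted p = 0.0539), and it passed in 6 of 21 alternative settings. Kcnv1 (Kv8.1), never above background, differed by -1.28 (SE 0.41, limma adjusted p = 0.19), and the median over the 5 silent genes was -1.07, with Kcng1 alone higher (0.30).

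Counted by separation of the arrays, 4 members, Kcna1, Kcnab2, Kcnd3 and Kcns1, had every CCI array below every sham array at both 14 and 21 days. That is 7.41% of the members, beside 2.14% of all probe sets. No member had every CCI array above sham on both days, beside 1.35% of all probe sets.

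The remaining families had values on either side of 0 after CCI, none of which passed. Of the 8 EAG and ERG genes 7 were higher and 1 lower, with a median of 0.16 and a highest value of 0.50 (Kcnh8). The 15 inward rectifiers had a median of 0.00 and ran from -0.76 (Kcnj11, the pore of ATP-sensitive channels) to 0.85 (Kcnj3). The 6 Kv1 genes had a median of -0.35. Kcnh3, an ELK channel subunit above background on all arrays, differed by 0.10 (SE 0.14, limma adjusted p = 0.913), Kcnmb1, the BK beta 1 subunit, by -0.11 (SE 0.30, limma adjusted p = 1), and Kcnj1, the ROMK rectifier, by 0.50 (SE 0.60, limma adjusted p = 0.87).

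**Figure D3:**
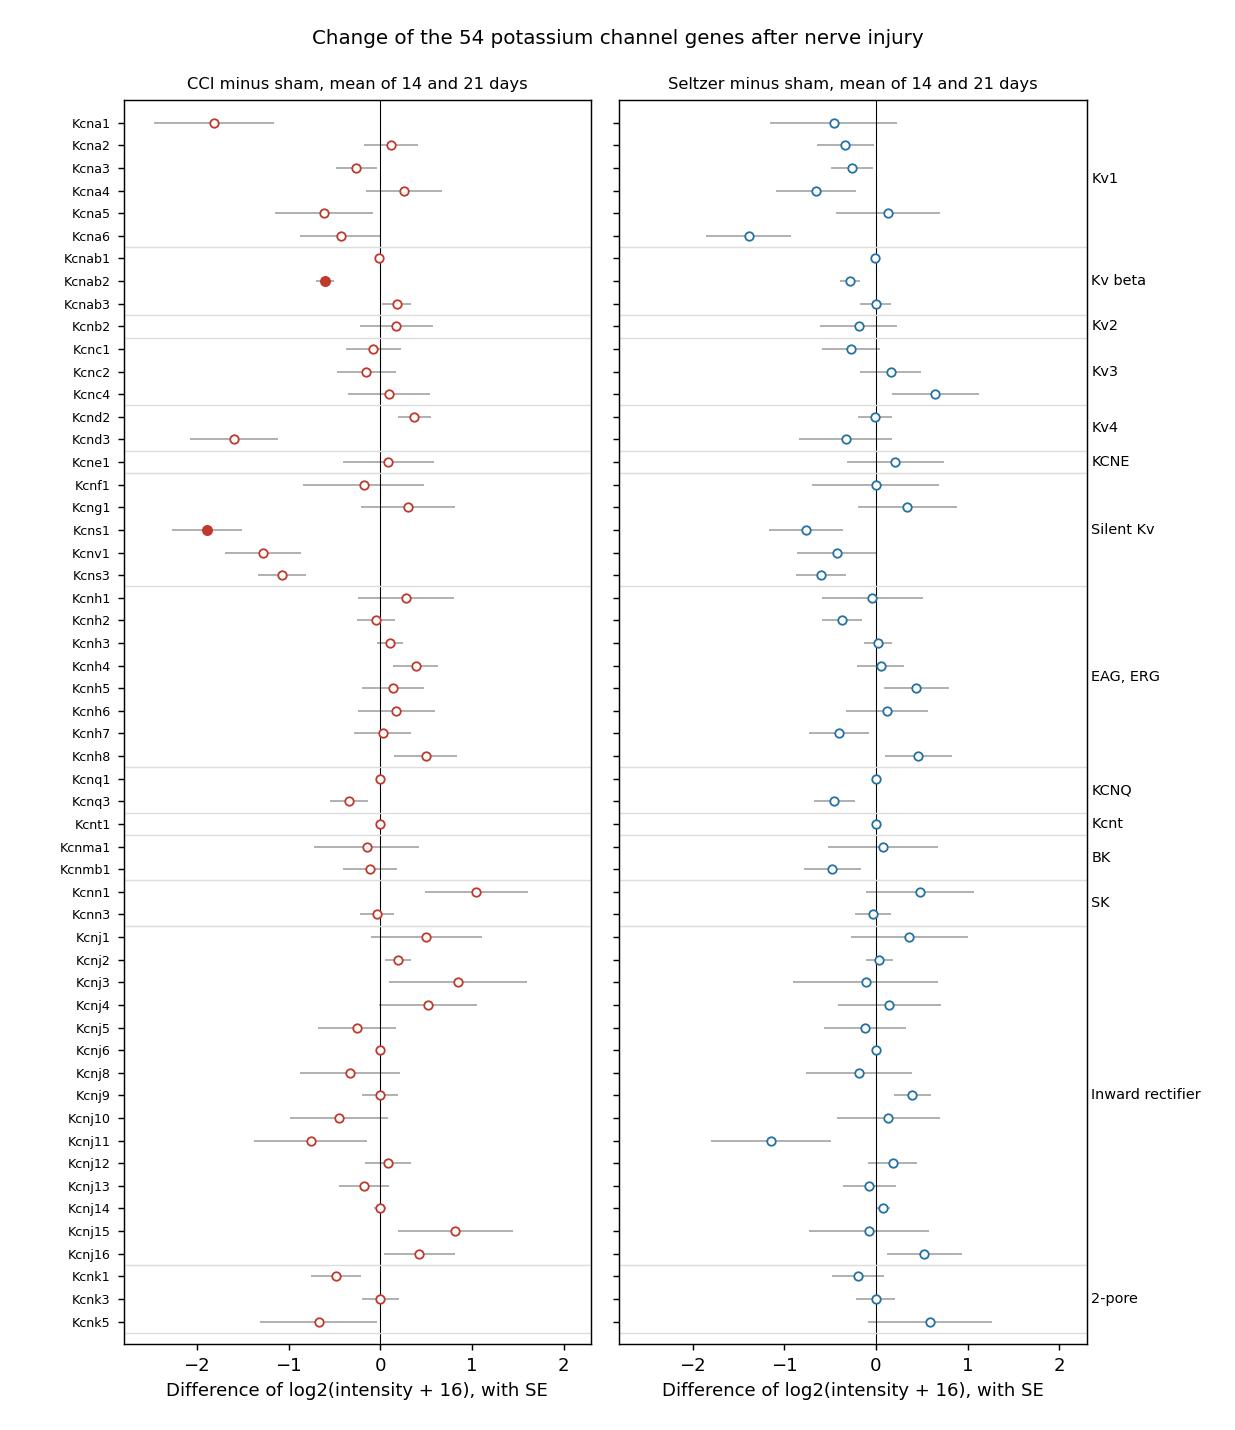
The horizontal axes give the difference of log2(intensity + 16) from sham, as a mean over 14 and 21 days with its SE, for CCI (left, red) and Seltzer (right, blue), and the rows are the 54 genes by subfamily. Filled points passed an adjusted p of 0.05, which in this plot are Kcnab2 (-0.60) and Kcns1 (-1.89) after CCI and none after Seltzer injury.

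Taken day by day, no member passed at 14 days after CCI, where 2.78% of all probe sets were called and 10.6% had an unadjusted p under 0.05 (13% of the members, 3 higher and 4 lower). The smallest adjusted p was 0.0982, for Kcnh4, another ELK subunit, which read 84.7 and 44.8 in sham and 185, 159.5 and 186 in CCI, all below background. Kcnab2 and Kcns1 were the members called at 21 days (3.7% of members, beside 0.927% of all probe sets, 0.389% lower and 0.538% higher), and no member was called at 21 days without any one of the 3 Sham 21-day arrays. Kcnab2 alone was called without CCI 21-day replicate 1 or replicate 3. No member passed in the test of the CCI effect at 21 minus 14 days, where 1.8% of all probe sets were called. There 5 members had an unadjusted p under 0.05, which is 9.26% beside 11.4% of all probe sets.

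Other cell markers moved between the same groups. Of the 13 sensory neuron markers the nociceptor sodium channels Scn10a (-1.06) and Scn11a (-1.11) fell after CCI and none rose, with a list median of 0.00. The macrophage gene Lyz2 rose by 1.21, the one of 6 macrophage markers to pass. The list summed to 2038 to 2778 in CCI and 1358 to 1767 in sham at 14 days, and to 2331 to 2927 and 962 to 1522 at 21 days. In each of these groups 4 of the 6 were never above background. Lyz2 alone averaged 2227 in CCI and 1136 in sham at 14 days, and 2224 and 828 at 21 days, so the sums are mostly its own readings. The 17 skeletal muscle markers summed to 12508 to 14205 in CCI against 6403 to 6979 in sham at 14 days, and to 1969 to 2903 against 6252 to 6473 at 21 days. None of the 7 satellite glia or 7 myelinating Schwann cell markers passed, and none of the 3 endothelial or 3 central glial markers was above background on at least 10 arrays. The part of these markers in the Kcn values was not tested.

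After the Seltzer injury, no potassium channel gene passed in the mean over 14 and 21 days, where 0.297% of all probe sets were called. By limma, 3 members had an unadjusted p under 0.05, all lower, which is 5.56% beside 4.77% of all probe sets. The smallest adjusted p was 0.611, for Kcna6 (-1.39), another Kv1 pore subunit that was never above background. These contrasts used the same sham arrays as those of CCI, so the values stand side by side and do not support each other.

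Kcnab2 read 916 and 788 at 14 days and 1052, 1043 and 976 at 21 days after the Seltzer injury, below every sham array of the day. The means were 1.32-fold and 1.13-fold lower than sham, and the change was -0.28 (SE 0.10, limma adjusted p = 0.769). Kcns1 read 46.5 and 60.8 at 14 days and 188, 142 and 81.1 at 21 days, also without overlap, and differed by -0.77 (SE 0.40, limma adjusted p = 1). Kcns3 was the third member with every Seltzer array below sham on both days, with 218 and 172 at 14 days and 152, 161 and 89.6 at 21 days, a change of -0.60 (SE 0.28, limma adjusted p = 1). These 3 are 5.56% of the members, beside 1.13% of all probe sets, and no member lay wholly above sham on both days, beside 1.34%.

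On the Seltzer arrays Kcna1 read 472 and 488 at 14 days and 314, 477 and 414 at 21 days. The 14-day arrays lay below sham (1.54-fold), the 21-day arrays overlapped it (1.25-fold), and the change was -0.46 (SE 0.69, limma adjusted p = 1). Kcnmb1 differed by -0.47 (SE 0.31, limma adjusted p = 1), Kcnk1, the TWIK1 leak channel, by -0.19 (SE 0.29, limma adjusted p = 1), Kcnh3 by 0.02 (SE 0.15, limma adjusted p = 1) and Kcnj1 by 0.36 (SE 0.64, limma adjusted p = 1). The other Kcnmb1 probe set, above background on 1 array, differed by 0.54 (SE 0.50). At single days 0 of 54 passed at 14 days (0.206% of all probe sets called) and 0 at 21 days (0.378%), with 3 members at an unadjusted p under 0.05 on each day (5.56%, beside 3.78% of all probe sets at 14 days and 6.6% at 21 days).

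Set directly against each other over 14 and 21 days, the injuries differed in no potassium channel gene by the limma test, while 0.927% of all probe sets were called. An unadjusted p under 0.05 was reached by 5 members, 2 higher and 3 lower in CCI, which is 9.26% beside 8.98% of all probe sets. Kcnab2 was lower in CCI than in Seltzer by a difference of -0.32 (SE 0.10, limma adjusted p = 0.244), Kcns1 by -1.12 (SE 0.38, limma adjusted p = 0.298) and Kcna1 by -1.35 (SE 0.66, limma adjusted p = 0.577). Kcnh3 (0.08, SE 0.14) and Kcnmb1 (0.36, SE 0.30) differed by less than 2 SE. The fall of Kcnab2 and Kcns1 after CCI was thus not shown to be larger than the difference seen after the Seltzer injury.

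On day 50 of the Seltzer injury 3 members fell and 3 rose, 11.1% of the members beside 15.9% of all probe sets called (7.2% lower and 8.72% higher), a share below the background. These arrays had the highest background of the series, and the 50-day sham arrays the lowest medians. Kcnab2 read 1842 and 1821 in sham and 934 and 814 in Seltzer, 2.10-fold lower, and fell by 1.06 (SE 0.16, limma adjusted p = 0.000848). Kcns1 read 227 and 203 in sham and -232 and -72.9 in Seltzer and fell by 3.85 (SE 0.62, limma adjusted p = 0.00127), with no reading above background. Kcnd3 read 329 and 372 in sham, both above background, and -158 and -62.0 in Seltzer, and fell by 4.52 (SE 0.78, limma adjusted p = 0.00204). The Kcnab2 and Kcnd3 calls held in 13 of 13 alternative settings and the Kcns1 call in 12. All 4 Seltzer readings of Kcns1 and Kcnd3 were negative and entered as 0, so the size of their changes follows from the number added. Over the settings it ran from -7.75 to -0.10 for Kcns1 and from -8.46 to -0.81 for Kcnd3, and from -1.40 to -0.96 for Kcnab2. With the 3 Seltzer days averaged, these same 3 members fell and none rose, 5.56% beside 4.38% of all probe sets (2.46% lower and 1.92% higher). That average includes the 50-day values, so it is no separate result. Kcnd3 differed by only -0.67 (SE 0.78) at 14 days and 0.02 (SE 0.64) at 21 days of the Seltzer injury.

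Against this, the second Kcnab2 probe set, never above background, rose at 50 days by 1.69 (SE 0.50, limma adjusted p = 0.0385), from 50.8 and 15.5 to 125 and 139. Another Kcnd3 probe set, also never above background, read 179 and 184 in sham and 315 and 347 in Seltzer (0.81, SE 0.54, limma adjusted p = 0.373). The second Kcna1 probe set fell by 3.13 (SE 0.39, limma adjusted p = 0.00019), from 221 and 203 to -3.36 and 26.3, also below background, while the representative one differed by -2.45 (SE 1.07, limma adjusted p = 0.146). For the BK gene Kcnma1, a probe set never above background fell by 2.83 (SE 0.28, limma adjusted p = 2.54e-05). It read 128 and 74.4 in sham and -48.3 and -10.9 in Seltzer, and it also differed between sham days (limma F test, adjusted p = 3.17e-05). The representative Kcnma1 probe set differed by 0.11 (SE 0.93).

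The 3 members that rose at 50 days stayed below the background of their arrays. Kcnv1 went from -41.5 and -21.6 in sham to 148 and 122 (3.23, SE 0.67, limma adjusted p = 0.00654). Kcnj5, a subunit of G-protein-gated rectifiers, went from -10.4 and 6.21 to 172 and 160.4 (3.27, SE 0.69, limma adjusted p = 0.00715), and Kcnh2, the ERG1 channel, from 226 and 277 to 559.9 and 528 (1.07, SE 0.34, limma adjusted p = 0.047). With no reading above background the sizes of these changes are uncertain. They ran from 0 to 7.08 for Kcnv1, from 0 to 5.96 for Kcnj5 and from 0.69 to 1.21 for Kcnh2 over the alternative settings. The Kcnh2 call held in 4 of 13 alternative settings, and those of Kcnv1 and Kcnj5 in 12 and 11.

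Besides Kcnab2, the members above background on all arrays of both 50-day groups were Kcnmb1, Kcnj1 and Kcnh3, and all were higher in Seltzer without passing. Kcnmb1 read 581 and 336 in sham and 1250.3 and 1086 in Seltzer, 2.64-fold higher (1.37, SE 0.48, limma adjusted p = 0.0754). Kcnj1 read 388 and 312 in sham and 1003 and 749 in Seltzer, 2.49-fold higher (1.28, SE 0.99, limma adjusted p = 0.461), and Kcnh3 read 1025 and 962 against 1529 and 1417, 1.48-fold higher (0.56, SE 0.23, limma adjusted p = 0.129). Their readings did not overlap between the groups, but with 2 arrays in each group this says little. Members never above background, such as Kcnc1 and Kcne1, did not overlap either. The share of all probe sets so separated at 50 days is not given here. A second Kcnj1 probe set, also chosen after its values were seen, was above background on 0 of 20 arrays. It read 139 and 98.7 in sham and 399.6 and 307 in Seltzer (1.46, SE 0.35, limma adjusted p = 0.0144).

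Other markers changed at 50 days as well. Of the 13 sensory neuron markers 6 fell (Prph, Isl1, Scn11a, P2rx3, Ret and Uchl1) and none rose, with sums of 27346 to 29146 in Seltzer and 36763 to 39346 in sham, and 6 of the 13 were never above background in the Seltzer group. Of the 17 muscle markers 7 rose, with sums of 5417 to 6487 against 1805 to 2222, though 15 of the 17 were never above background in the Seltzer group. Of the 6 macrophage markers Cd14 rose, with sums of 1336 to 1711 against 886 to 1177, though 4 of the 6 were never above background in either group. Their part in the Kcn values was not tested.

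**Figure D4:**
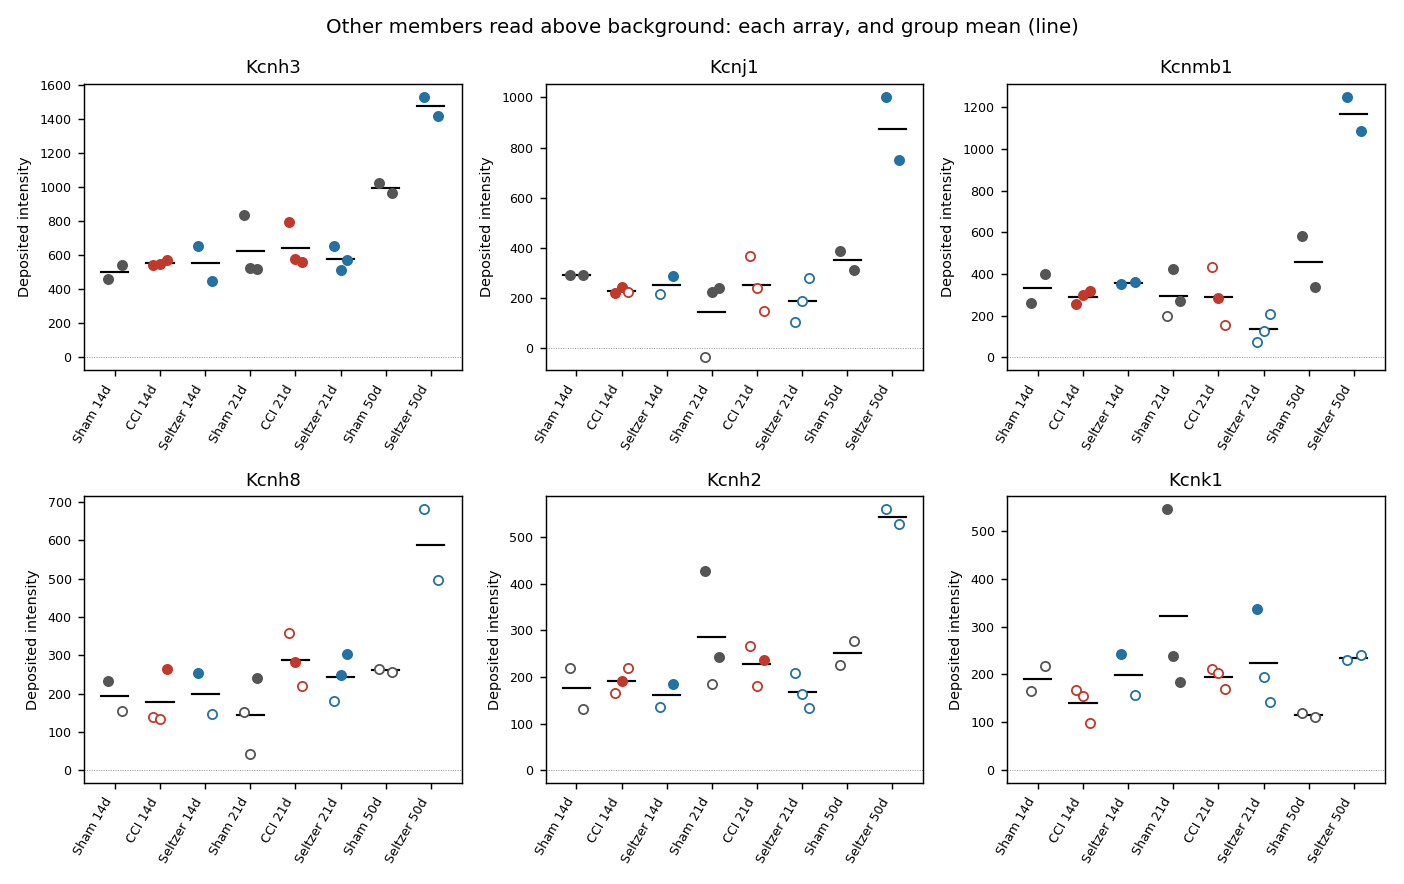
Each panel plots the deposited intensity (vertical axis, linear scale) of 1 further gene that was above background on some arrays, in the 8 groups, with sham grey, CCI red and Seltzer blue, filled points above background and black lines for group means. Kcnh3, Kcnj1 and Kcnmb1 are highest on the Seltzer 50-day arrays, at 1417 to 1529, 749 to 1003 and 1086 to 1250.3, where the Kcnh2 and Kcnh8 points are open because the background there was 599 and 766.

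Sham ganglia themselves differed between days. In the F test over sham at 14, 21 and 50 days, 4 members passed (Kcnab2, Kcnh3, Kcnh4 and Kcnh5), 7.41% of the members beside 8.48% of all probe sets. Sham Kcnab2 was 1122 ± 46.3 (SD, n = 2), 1155 ± 7.86 (SD, n = 3) and 1831 ± 15.0 (SD, n = 2) at 14, 21 and 50 days (limma adjusted p = 0.018). Sham Kcnh3 was 500.5 ± 56.1 (SD, n = 2), 625 ± 184 (SD, n = 3) and 994 ± 44.5 (SD, n = 2) (limma adjusted p = 0.0421). The count of 4 fell to 2 with arrays centred on their median or quantile normalized, where Kcnab2 and Kcnh5 did not pass. It was 1 without Sham 14-day replicate 2 or either of the Sham 50-day arrays, and 2 without Sham 14-day replicate 1 or Sham 21-day replicate 3.

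Ordered by group mean, Kcnab2 was lowest in CCI at 21 days (726) and 14 days (780.3), followed by Seltzer at 14 days (852), at 50 days (874) and at 21 days (1024), and then sham at 14, 21 and 50 days. The first 4 of these means lie within the spread of their neighbours, with SDs of 41.4 to 157 over the injured groups. The sham 50-day arrays stand clear of all others, the next highest single reading being 1164. At 50 days the Seltzer mean lay between those of 14 and 21 days, and the sham mean was the highest of the 3 days.

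A list of 54 genes covered potassium channel partners and other potassium transport, such as sodium pump subunits and cotransporters. Of these genes 29 were measured, 10 of them above background on at least 10 arrays. None passed after CCI (median 0.01) or after Seltzer injury (median 0.07) over 14 and 21 days. In the Seltzer groups Cntn1 was called higher at 14 days, and at 50 days 4 were higher (Abcc9, Nedd4, Atp1b2 and Fxyd1) and 3 lower (Calm2, Rest and Slc12a2), with a median of 0.00. Nedd4, Atp1b2 and Rest were not above background on any array. The Slc12a2 mean of 259 in Seltzer at 50 days was under the background of those arrays (766 and 599). Of all probe sets, 0.206% were called at 14 days and 15.9% at 50 days. Dlg4 (PSD-95, which clusters Kv1) differed by 0.08 (SE 0.23, limma adjusted p = 1) after CCI and Cntnap1 (Caspr, of the paranodal junction) by -0.04 (SE 0.12, limma adjusted p = 1). Cntn1, the axonal partner of Caspr, was lower in CCI than in Seltzer by a difference of -0.88 (SE 0.17, limma adjusted p = 0.0269), with no reading above background.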

How the data were processed

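Ganglion RNA was measured on 20 single-colour arrays, and the values are intensities as deposited by the authors in the series' value table, already scaled and in part negative. Software and scaling: not given in the sources used here. A lot batch is named for 3 CCI arrays only, with a replicate number and no lot, so lot could not be entered as a block. Of 8799 probe sets 59 array controls were left out, and of the 8740 tested 7006 had 1 gene symbol, 308 several and 1426 none in GEO's platform annotation. Symbols were updated through RefSeq's gene table for GRCr8.

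Negative values were replaced by 0 and log2 was taken after adding 16. One linear model over the 8 groups was fitted with limma 3.58.1 in R 4.3.3 (lmFit and eBayes, 12 residual degrees of freedom), and contrasts were adjusted by Benjamini-Hochberg over all probe sets at 0.05. Scripts were tested on simulated data. The number of arrays limits the precision. Setting negative values to 0 and adding 16 compress changes of dim probe sets.

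Kcns1 and Kcnab2 were always named. So were members past the threshold in a contrast (at most 12), the 3 highest and 3 lowest changes in each mean contrast among members above background on every array of a compared group, the brightest member of each subfamily, and members above background on at least 10 arrays. Other genes and probe sets named were chosen after their values were seen. The members and lists were chosen with earlier results of these data known. Same-numbered arrays of Seltzer and sham at 21 days deviated together (r = 0.299, 0.226 and 0.11 across probe sets), while those of CCI and sham at 21 days were all under 0.1 (0.0606, 0.0881 and 0.0931). The labels give no source for a pairing. Alternatives were the added number, the scaling, the probe sets and groups in the fit, a replicate block, the variance model, other probe sets of a gene and each array left out.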

Additional observations from a re-analysis of the deposited data

Results flagged for a closer look

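Some members had every array of one group above the mean of its same-day sham arrays and every array of another group below it. The differences between such groups were not tested, except for Kcnj1 between the CCI days, and all values are differences of log2(intensity + 16) from sham. The Seltzer 50-day arrays, which enter most of these pairs, have the highest background of the series.

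After CCI, Kcnj1 differed by -0.33 on day 14 and 1.34 on day 21, and the test of this difference (1.67, SE 1.21, limma adjusted p = 0.658) did not pass. Its sham reading of -36.6 on Sham 21-day replicate 1 stands apart from the other 2 at 224 and 241. After the Seltzer injury Kcnj1 differed by -0.22 at 14 days and 1.28 at 50 days.

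In the Seltzer groups Kcnmb1 differed by 0.13 on day 14, -1.08 on day 21 and 1.37 on day 50, and after CCI by -0.15 on day 14. The other Kcnmb1 probe set, above background on 1 array, did not show this swing. It differed by 0.49, 0.60 and 0.52 on Seltzer days 14, 21 and 50, and by 0.34 on day 14 after CCI.

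In the Seltzer groups Kcnh2 differed by -0.65 on day 21 and 1.07 on day 50. Kcnj5 differed by -0.46 at 14 days and 3.27 at 50 days, and Kcnv1 by -0.50 at 14 days and 3.23 at 50 days, both without a reading above background.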

How the results depend on the processing

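Values near or below background, 2 to 3 arrays a group and the unequal backgrounds of the arrays limit these results. Centring arrays on their median moved the median of all probe sets by 0.12 (CCI at 14 days), -0.17 (CCI at 21 days) and -0.34 (Seltzer at 50 days). A value floor of 200, leaving out the 50-day arrays, and the alternatives for the sham count were chosen after seeing the data. The cause of the changes below was not tested.

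The 2 members called after CCI over both days became 1 with 1 added before log2 (Kcnab2) or the dimmest probe sets left out (Kcns1), 0 with only the compared groups fitted, and 1 to 5 with an array left out. Kcnab2 passed in 18 of 21 alternatives (adjusted p 0.000809 to 0.186) and Kcns1 in 15 of 21 (0.000526 to 0.222). At 21 days the 2 called became 1 with 1 added, quantile normalization, median centring, the dimmest probe sets left out, a replicate block or the floor of 200, and 0 with only the compared groups or without the 50-day arrays, with a range of 0 to 2 with an array left out. At 14 days the 0 called became 1 with quantile normalization (Kcnh4), only the compared groups (Kcna2) or any probe set counted (Kcna1), 2 with the floor of 200 (Kcna1 and Kcns3), and 0 to 1 with an array left out (Kcnd2, without CCI 14-day replicate 3).

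After the Seltzer injury the 0 called became 3 with 50 days averaged in (Kcnab2, Kcns1 and Kcnd3, where 4.38% of all probe sets were called), and 0 to 1 with an array left out, over both days and at 14 days (Kcnj9, without Seltzer 14-day replicate 1). At 50 days the 6 called stayed at 5 to 9 in all settings. Between CCI and Seltzer the 0 called became 0 to 1 with an array left out (Kcnd2 without CCI 14-day replicate 3, Kcnc4 without CCI 21-day replicate 1, Kcns1 without CCI 21-day replicate 2, Kcnj9 without Seltzer 14-day replicate 1). For CCI at 21 minus 14 days the 0 called became 1 with quantile normalization (Kcnh4) or only the compared groups (Kcna2), and 0 to 1 with an array left out (Kcnd2). The 4 called over sham days became 2 with quantile normalization or median centring, and 1 to 3 with an array left out. The replicate block moved no other count by over 1.5 times (50 days, 5).

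Signs that turned were all of uncalled values. After CCI, Kcnmb1 ran from -0.28 to 0.073 with an array left out (0.034 and 0.026 without replicate 2 of Sham 14 or 21 days), and Kcnj1 from -0.16 to 0.85 (-0.16 without Sham 21-day replicate 1), with -0.058 under the floor of 200. After the Seltzer injury, averaging in 50 days gave 0.14 for Kcnmb1 and 0.18 for Kcnk1. With an array left out Kcnk1 ran from -0.35 to 0.026, Kcnj1 from -0.30 to 0.71 and Kcnh3 from -0.11 to 0.15. Kcnj1 was -0.11 with the floor of 200 and Kcnh3 -0.0035 with quantile normalization. Between CCI and Seltzer, Kcnh3 ran from -0.048 to 0.22 with an array left out.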
